A study of Mus musculus with 6 samples.

Results

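Anti-Müllerian hormone (AMH, encoded by Amh) and its type II receptor (AMHR2, encoded by Amhr2) are described here by their mRNA levels in mouse ovary. The 2 genes were found by their NCBI Gene IDs, 11705 and 110542, among 45679 genes with a symbol in the files, and both were among the 16473 genes tested. Messenger RNA was sequenced from whole ovaries of wild-type BDF1 mice, a hybrid laboratory strain, in 3 groups of 2 libraries. The first group was labelled old MIT-001 (65 weeks of age), and its mice received MIT-001, which scavenges reactive oxygen species in mitochondria, by intraperitoneal injection at 0.5 mg/kg over 7 days. The second was labelled old PBS (65 weeks of age, injected with phosphate-buffered saline), and the third young PBS (8 weeks of age, injected with the same saline). Since the number of animals behind a library is not in the labels, p-values reflect the spread between libraries, which may be technical. Levels are in TPM, an abundance scaled for transcript length and for library, so they can be compared between genes.

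AMH is a secreted member of the TGF-beta family made in the adult ovary by granulosa cells of small growing follicles, and it is used as a blood marker of the follicle reserve. The precursor is cleaved by proprotein convertases. The mature hormone binds AMHR2, which recruits a type I receptor shared with bone morphogenetic proteins (ACVR1, BMPR1A or BMPR1B), and SMAD1, SMAD5 and SMAD9 then carry the signal with SMAD4 and induce ID genes. In mice, AMH restrains the entry of resting follicles into growth and lowers the response of granulosa cells to follicle-stimulating hormone (FSH).

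On mm10, Amh spans positions 80805240 to 80807679 on the plus strand of chromosome 10. GENCODE M21 gives it 1 transcript of 5 exons and 1670 bases. The start of Amh lies 317 bases beyond the end of Sf3a2, a splicing factor gene on the same strand. On its other side, 814 bases beyond the end of Amh, lies the end of Jsrp1, a gene on the minus strand. Amhr2 spans 102445002 to 102454640 on the plus strand of chromosome 15 and has 5 annotated transcripts, of which the longest has 11 exons and 1938 bases. No other gene in the files overlapped either gene.

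Of the 2 genes, 1 had a promoter sequence in the RefSeq table (GRCm38.p6). It is that of Amhr2, and it holds a motif of NR5A1 (SF-1), a transcription factor of gonadal cells. There was no Amh promoter to set beside it, and a bearing of its motifs on the level of Amhr2 was not tested. The 250 bases before the Amhr2 start, chr15:102445117-102445366 on the plus strand, are given 5′ to 3′, with matches to CAAGGTCA (the NR5A1 motif) and GATAA (the GATA motif) on either strand in capitals.
Amhr2: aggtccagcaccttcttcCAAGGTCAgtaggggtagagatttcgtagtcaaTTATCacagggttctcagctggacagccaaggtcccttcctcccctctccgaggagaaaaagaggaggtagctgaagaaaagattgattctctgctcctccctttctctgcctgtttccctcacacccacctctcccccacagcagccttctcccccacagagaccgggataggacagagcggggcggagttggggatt
The NR5A1 motif lay 232 to 225 bases before the start, and the GATA motif lay 199 to 195 bases before it on the opposite strand. CAAGGTCA was present in 1.33% and GATAA in 22.6% of 32851 promoter windows of this length in the table, and the motifs did not overlap in the Amhr2 window. TATAAA, present in 12.4% of windows, was not found in it. The deposited start of Amhr2 lies before this window, so transcripts of the authors' annotation may include part of it.

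The age labels were checked against cell type markers, and several values of the 2 PBS groups went against them. Oocytes are known to become fewer with age, but the summed level of 12 oocyte genes was 95.3 and 47.4 TPM in the old MIT-001 libraries, 505 and 532 TPM in both libraries labelled old PBS, and 343 and 37.9 TPM in those labelled young PBS. The summed level of 6 plasma cell genes, which rise in aged ovaries, was 1188 and 239.6 TPM in the old MIT-001 libraries, 145 and 140.1 TPM in both libraries labelled old PBS, and 1764 and 399 TPM in those labelled young PBS. Each group is therefore called by its label, and no direction is given beyond those labels. Aligned reads amounted to 6.34 to 7.14 gigabases a library, as worked out from the deposited coverage. Replicates 1 and 2 labelled young PBS differed more from each other (a median gap of 0.52 in log2(TPM + 1) over all genes tested) than the replicates labelled old MIT-001 (0.24) or old PBS (0.23).

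Amh had 50.1 and 80.6 TPM in the libraries labelled old MIT-001, 123 and 213 TPM in those labelled old PBS, and 95 and 40.1 TPM in those labelled young PBS. Both libraries labelled old PBS were above all 4 others, and the other groups overlapped. Mean read depth over the gene was 127 to 611 reads. The highest library had 5.31 times the level of the lowest, and the SD of log2(TPM + 1) over the 6 libraries was 0.86. Among 2696 genes with a mean level between 50 and 200 TPM, the median SD was 0.30, and 4.6% had a larger SD than Amh.

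Amhr2 had 94.1 and 141 TPM in the libraries labelled old MIT-001, 93.3 and 110.1 TPM in those labelled old PBS, and 103 and 94.7 TPM in those labelled young PBS. Replicate 2 labelled old MIT-001 was the highest, the other 5 lay between 93.3 and 110.1 TPM, and all 3 groups overlapped. The highest library had 1.51 times the level of the lowest, against 5.31 times for Amh. Its SD over the 6 libraries was 0.23, and 70.3% of the 2696 genes of similar level had a larger one. Mean read depth over Amhr2 was 237 to 340 reads.

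**Figure D1:**
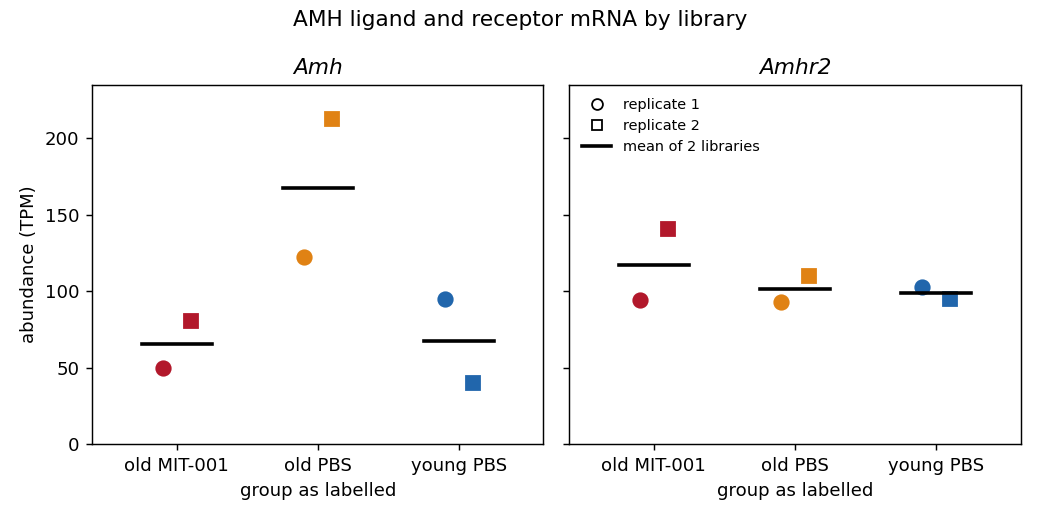
Abundance in TPM (vertical axis, linear from 0) of Amh (left) and Amhr2 (right) in each library, by group as labelled, with a line at the mean of 2 libraries. Amh reached 123 and 213 TPM under the label old PBS and at most 95 TPM in the others, while 5 of 6 libraries had between 93.3 and 110.1 TPM of Amhr2.

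The first comparison, libraries labelled old PBS against those labelled young PBS, asks what differs with age without treatment, if the labels are right. With those labels exchanged, its direction in age would be the opposite. Amh averaged 168 ± 63.8 TPM under the label old PBS and 67.6 ± 38.9 TPM in those labelled young PBS (SD, n = 2 each). Its log2 fold change on the TPM + 1 scale was 1.37 ± 0.49 (SE), with a 95% confidence interval of 0.17 to 2.57. This did not pass limma's test over all genes, with an adjusted p of 0.247 (unadjusted p 0.031, where 14.6% of genes were higher at an unadjusted p below 0.05). Amhr2 averaged 102 ± 11.9 TPM under the label old PBS and 98.6 ± 5.55 TPM in those labelled young PBS. The log2 fold change of Amhr2 was 0.04 ± 0.25, with an interval of -0.57 to 0.65 and an adjusted p of 0.957. Of all genes tested, 0.0364% passed, and neither Amh nor Amhr2 was among them. The libraries did not overlap and were higher in the group labelled old PBS for 38.1% of genes, so many genes share this with Amh. The difference in Amh rested on single libraries in size, being 1.98 without replicate 1 labelled young PBS and 0.76 without replicate 2.

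The second comparison, libraries labelled old MIT-001 against those labelled old PBS, asks what the compound changes in old ovaries, if the labels are right. With the labels of the PBS groups exchanged, age and treatment would differ together in it. Amh averaged 65.3 ± 21.6 TPM in the libraries labelled old MIT-001 and 168 ± 63.8 TPM in those labelled old PBS. The log2 fold change of Amh was -1.33 ± 0.49, with an interval of -2.53 to -0.13 and an adjusted p of 0.366 (unadjusted p 0.0346, where 4.36% of genes were lower at an unadjusted p below 0.05). Amhr2 averaged 117 ± 32.9 TPM in the libraries labelled old MIT-001 and 102 ± 11.9 TPM in those labelled old PBS. Its log2 fold change was 0.18 ± 0.25, with an interval of -0.43 to 0.79 and an adjusted p of 0.900. In this comparison 0.0182% of genes passed, and libraries were lower without overlap for 24.2% of genes, Amh included. The first 2 comparisons share the libraries labelled old PBS, so their opposite signs for Amh are not independent.

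In the third comparison, libraries labelled old MIT-001 against those labelled young PBS, both genes overlapped between groups. Amh averaged 65.3 ± 21.6 TPM in the libraries labelled old MIT-001 and 67.6 ± 38.9 TPM in those labelled young PBS. The log2 fold change was 0.04 ± 0.49 for Amh, with an interval of -1.16 to 1.24 and an adjusted p of 0.984. That of Amhr2 was 0.22 ± 0.25, with an interval of -0.39 to 0.83 and an adjusted p of 0.732. By limma, 0 genes passed in this comparison, although 2820 (17.1%) were higher and 134 (0.813%) lower at an unadjusted p below 0.05, so the share called was 0%. The order of mean Amh levels was thus old PBS, then young PBS and old MIT-001, and the last 2 did not differ beyond their spread.

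The ligand and the receptor differed in how they varied. The ratio of Amh to Amhr2 in TPM was 0.532 and 0.573 in the libraries labelled old MIT-001, 1.31 and 1.93 in those labelled old PBS, and 0.927 and 0.423 in those labelled young PBS. Ligand mRNA exceeded receptor mRNA in both libraries labelled old PBS and in none of the other 4. On the log2 scale the ratio averaged -0.86 in the libraries labelled old MIT-001 and 0.67 in those labelled old PBS, a difference of -1.53 with no overlap. Against young PBS, the libraries labelled old PBS averaged 0.67 and those labelled young PBS -0.68, a difference of 1.35, also with no overlap. Each of these had a two-sided exact permutation p of 0.333, the smallest that 2 against 2 libraries can give.

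Amh and Amhr2 were next set against 12 other granulosa cell genes, none of them a member, by subtracting the mean log2(TPM + 1) of the list within each library. Amh lay 0.96 and 0.60 log2 units below the list mean in the libraries labelled old MIT-001 and 0.76 and 0.42 below it in those labelled old PBS. In the libraries labelled young PBS the difference was 0.16 and -0.69. These ranges overlapped in all 3 comparisons, with exact permutation p of 0.667 in each. The group means of this measure differed by -0.19 for old MIT-001 against old PBS and by -0.32 for old PBS against young PBS, with pooled SDs of 0.25 and 0.46.

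Amhr2 varied less than the list. Its difference from the list mean was -0.06 and 0.20 in the libraries labelled old MIT-001, -1.15 and -1.36 in those labelled old PBS, and 0.26 and 0.53 in those labelled young PBS. It was lowest relative to the list in the libraries labelled old PBS, by 1.32 against old MIT-001 and 1.65 against young PBS. The old MIT-001 libraries lay 0.33 below the young PBS ones. None of the groups overlapped in this measure, at an exact permutation p of 0.333 for each pair, again the smallest possible.

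**Figure D2:**
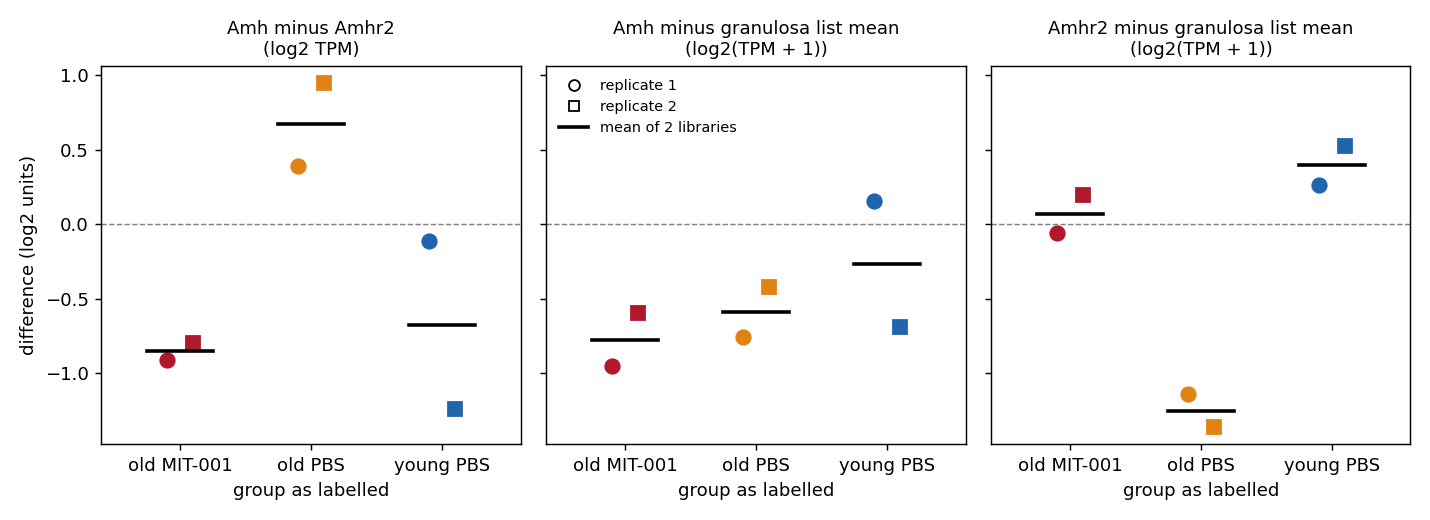
Differences in log2 units (vertical axis) in each library, by group as labelled, for Amh minus Amhr2, Amh minus the mean of 12 granulosa cell genes and Amhr2 minus the same mean, with a line at the mean of 2 libraries. Amh minus the granulosa mean overlaps between groups, whereas Amhr2 minus the granulosa mean is -1.15 and -1.36 under the label old PBS and at least -0.06 in the others.

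Granulosa cell genes themselves were mostly higher in the libraries labelled old PBS. Against young PBS, 11 of 12 had a positive log2 fold change, as 68.1% of all genes did (median 1.53, against 0.23 over all genes), 10 were higher without overlap (38.1% of all genes) and 1 passed (0.0364% of all genes). The one that passed was Inhba, which encodes an activin subunit (log2 fold change 4.44, adjusted p 0.0433). In the libraries labelled old MIT-001 against old PBS, 11 of 12 had a negative log2 fold change, where 53.5% of all genes had a positive one (median -1.45, against 0.04 over all genes), 10 were lower without overlap (24.2% of all genes) and 0 passed (0.0182% of all genes). Fshr, the FSH receptor gene, had 13.4 and 25.8 TPM in the libraries labelled old MIT-001, 43.7 and 62.3 TPM with the label old PBS, and 17.7 and 19.9 TPM in those labelled young PBS. Inhbb, another inhibin and activin subunit gene, had 82.6 and 105 TPM in the old MIT-001 libraries, 401 and 418 TPM in the old PBS ones and 126 and 125 TPM in the young PBS ones. Kitl, the KIT ligand gene, ran the other way, with 23.8 and 16.9 TPM in the libraries labelled old MIT-001 against 3.44 and 7.89 TPM with the label old PBS (log2 fold change 1.75, adjusted p 0.200). In whole ovaries, fewer cells of a type and less RNA per cell cannot be told apart.

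Genes of the FSH response list had positive log2 fold changes in 8 of 8 cases for old PBS against young PBS (median 1.32, where 68.1% of all genes were positive with a median of 0.23), and Inhba, already counted in the granulosa list, was the 1 that passed. The same genes had negative ones in 8 of 8 for old MIT-001 against old PBS (median -1.32, against 0.04 over all genes, 0 passing). Fshr, Cyp19a1, Inha, Inhba and Nr5a2 are in the granulosa list as well, so most of this list repeats genes given above.

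Oocyte genes were also highest in the group labelled old PBS. Between the other groups the medians of the oocyte and granulosa lists had opposite signs, but neither sign held in every setting. In old MIT-001 against young PBS, 12 of 12 oocyte genes had a negative log2 fold change (median -0.57, or -2.01 to 0.74 with 1 library left out). Of 12 granulosa genes, 8 had a positive one (median 0.32, or -0.02 to 0.47 with 1 library left out and -0.09 with median centring). All 12 oocyte genes were higher in the libraries labelled old PBS against young PBS (median log2 fold change 1.97), and all 12 were lower in those labelled old MIT-001 against old PBS (-2.62), with 0 passing in either. Gdf9, an oocyte growth factor gene, had 22.8 and 9.35 TPM in the libraries labelled old MIT-001, 116 and 108 TPM in those labelled old PBS, and 73.3 and 9.51 TPM in those labelled young PBS. The oocyte median against young PBS was 3.42 without replicate 1 labelled young PBS and 0.61 without replicate 2. Genes known in mice to be promoted in cumulus cells by the oocyte, as Amh is, were lower in 5 of 5 cases in the libraries labelled old MIT-001 against old PBS (median -0.51, 0 passing). Over all genes the median was 0.04 there, and 53.5% were higher. In old PBS against young PBS, 4 of the 5 were higher, as were 68.1% of all genes. The median of the 5 was 0.495, against 0.23 over all genes. With median centring it was 0.17, against -0.09 over all genes. In old MIT-001 against young PBS, 4 of the 5 were lower (median -0.405). Slc38a3, an amino acid transporter gene of this list, had 43.9 and 14.2 TPM in the libraries labelled old MIT-001, 80.9 and 133 TPM in those labelled old PBS, and 74.0 and 14.9 TPM in those labelled young PBS.

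**Figure D3:**
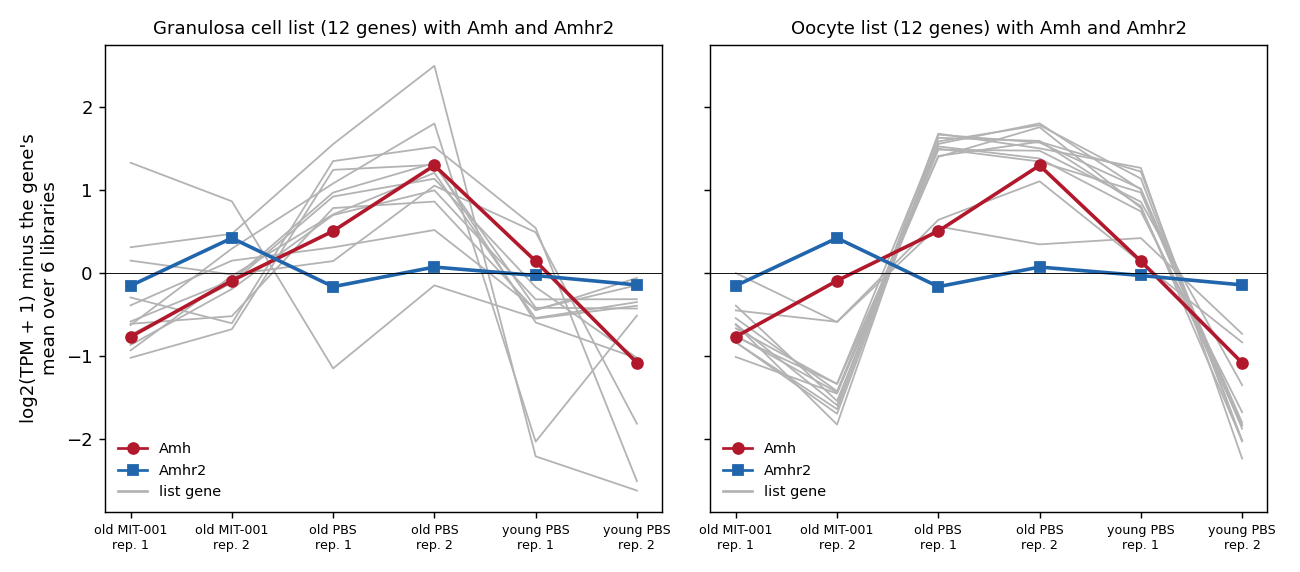
log2(TPM + 1) of each gene minus its own mean over the 6 libraries (vertical axis), by library (horizontal axis), for Amh, Amhr2 and the 12 genes of the granulosa cell list (left) or the oocyte list (right). Lines join the values of a gene and imply no order of libraries. Amh peaks in replicate 2 labelled old PBS with most granulosa genes, and Amhr2 stays within a range of 1.51 times.

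Among the genes of AMH signalling, the type I receptors had unlike profiles. Acvr1 had 33.2 and 31.9 TPM in the libraries labelled old MIT-001, 31.9 and 35.7 TPM in those labelled old PBS, and 22.7 and 40.2 TPM in those labelled young PBS, with overlap throughout. Bmpr1a had 75.5 and 79.7 TPM in the old MIT-001 libraries, 47.0 and 64.7 TPM in the old PBS ones and 33.2 and 30.4 TPM in the young PBS ones, with no overlap between any of the groups. Bmpr1b had 18.3 and 18.7 TPM in the old MIT-001 libraries, 29.1 and 45.1 TPM in the old PBS ones and 9.74 and 3.02 TPM in the young PBS ones. Both old PBS libraries were above all 4 others for Bmpr1b, as for Amh, whereas Acvr1 averaged 32.5, 33.8 and 31.5 TPM in the old MIT-001, old PBS and young PBS groups with overlap. The log2 fold change of Bmpr1b was 2.50 ± 0.49 for old PBS against young PBS (adjusted p 0.206) and -0.93 ± 0.49 for old MIT-001 against old PBS (adjusted p 0.554), and no type I receptor passed in any comparison. Amhr2 mRNA exceeded that of each type I receptor in every library.

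The 6 SMAD genes had 0 members passing in any comparison, with median log2 fold changes of 0.53 for old PBS against young PBS and 0.36 for old MIT-001 against old PBS. Smad1, a receptor-activated SMAD gene, had 38.6 and 40.1 TPM in the libraries labelled old MIT-001, 49.5 and 58.8 TPM in those labelled old PBS, and 48.0 and 22.5 TPM in those labelled young PBS. Smad6, which encodes an inhibitory SMAD, had 9.78 and 9.995 TPM in the libraries labelled old MIT-001 against 6.0 and 5.39 TPM with the label old PBS (log2 fold change 0.70, adjusted p 0.408). The median for old PBS against young PBS was 0.21 after each library was centred on its median and 0.30 without replicate 2 labelled young PBS. That for old MIT-001 against old PBS was 0.17 with quantile normalization and 0.15 without replicate 1 labelled old MIT-001.

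All 4 ID genes, transcriptional targets of this branch, had positive log2 fold changes in the libraries labelled old MIT-001 against old PBS (median 0.73, 3 without overlap, where 27.2% of all genes were higher without overlap), and 0 passed. Id1 had 78.5 and 97.6 TPM in the libraries labelled old MIT-001, 46.0 and 60.6 TPM in those labelled old PBS, and 39.4 and 36.0 TPM in those labelled young PBS. Id4 had 9.59 and 6.90 TPM in the old MIT-001 libraries, 2.54 and 2.50 TPM in the old PBS ones, and 4.13 and 1.52 TPM in the young PBS ones. The highest Id1 and Id4 levels were thus in the group labelled old MIT-001. Id3 overlapped between the old groups (log2 fold change 0.06). Id2 was higher without overlap in old MIT-001 than in old PBS, but had 200 TPM in replicate 1 labelled young PBS, against 226 and 185 TPM in the old MIT-001 libraries. A link of these levels to that of Amh was not tested. For old PBS against young PBS, 2 of the 4 ID genes were higher and 2 lower (median 0.22, or -0.10 after median centring).

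Of the convertase genes, Furin had 91.6 and 106 TPM in the libraries labelled old MIT-001, 99.9 and 99.2 TPM in those labelled old PBS, and 54.5 and 170 TPM in those labelled young PBS. Pcsk5, whose product cleaves AMH in cultured cells, had 16.8 and 20.7 TPM in the old MIT-001 libraries, 31.4 and 29.1 TPM in the old PBS ones and 20.0 and 14.1 TPM in the young PBS ones. Its libraries labelled old PBS did not overlap with the others. The log2 fold changes of Pcsk5 were 0.81 ± 0.26 for old PBS against young PBS and -0.67 ± 0.26 for old MIT-001 against old PBS. Adjusted p by limma were 0.229 and 0.400. Pcsk6, the other gene of this list, had 31.2 and 81.2 TPM in the old MIT-001 libraries. It had 33.4 and 38.3 TPM in the old PBS ones and 22.4 and 46.1 TPM in the young PBS ones. Furin and Pcsk6 overlapped in every comparison. For old MIT-001 against old PBS their log2 fold changes were -0.01 and 0.49.

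Transcription factors that act on the Amh promoter, known mainly from the Sertoli cells of the fetal testis, were split in direction in both comparisons with old PBS, with 4 of 8 higher and 4 lower in old MIT-001 against old PBS and the same split in old PBS against young PBS. In old MIT-001 against young PBS, 7 of 8 were higher, as were 69.3% of all genes. Of the 8, 4 were higher at an unadjusted p by limma below 0.05, as were 17.1% of all genes. The median log2 fold change of the list was 0.45, against 0.24 over all genes. With median centring it was 0.03, against -0.17 over all genes. None of the 8 passed in any comparison. Nr5a1 had 182 and 181 TPM in the libraries labelled old MIT-001, 289 and 250.5 TPM in those labelled old PBS, and 121 and 369 TPM in those labelled young PBS. Wt1 had 149 and 160 TPM in the old MIT-001 libraries, 40.4 and 47.0 TPM in the old PBS ones, and 62.4 and 41.9 TPM in the young PBS ones. Sox9 had 10.8 and 8.88 TPM in the old MIT-001 libraries, 1.39 and 0.801 TPM in the old PBS ones, and 2.52 and 3.14 TPM in the young PBS ones. In old MIT-001 against old PBS, Wt1 and Sox9 had log2 fold changes of 1.80 ± 0.25 and 2.38 ± 0.32 (adjusted p by limma 0.0895 and 0.0821). Both genes were also lower in the young PBS libraries than in the old MIT-001 ones. Nr0b1 and Sox8 were higher as well in old MIT-001 than in old PBS (1.56 and 0.35). The 4 lower factors were Nr5a1, Foxl2, Gata4 and Gata6 (log2 fold changes -0.57, -0.53, -0.40 and -0.002). Of these, Gata6 overlapped and the others, like Amh, were lower without overlap. A bearing of the levels of these factors on that of Amh was not tested.

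Wt1 is also known in the ovarian surface epithelium, and markers of surface and oviduct epithelium were higher in the same group. All 8 surface epithelium genes and 4 of 5 tested oviduct genes were higher without overlap in the libraries labelled old MIT-001 than in those labelled old PBS. Of all genes tested, 27.2% were higher without overlap in this comparison. The other oviduct gene, Foxj1, overlapped, with 0.867 and 67.0 TPM in the old MIT-001 libraries and 1.40 and 1.07 TPM in the old PBS ones. Of the genes of these lists, 1 passed, where 0.0182% of all genes did. It was the keratin gene Krt18 (log2 fold change 2.63, adjusted p by limma 0.0343). The summed level of the surface epithelium list was 643 and 673 TPM in the old MIT-001 libraries, 169 and 163 TPM in the old PBS ones and 258 and 360.2 TPM in the young PBS ones. That of the 6 oviduct genes was 749.9 and 415 TPM in the old MIT-001 libraries, 32.3 and 36.5 TPM in the old PBS ones and 104 and 191 TPM in the young PBS ones. No gene of either list was at 0 in any library. The part of these cells in the values of Amh, Amhr2, Wt1 and Sox9 was not tested.

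**Figure D4:**
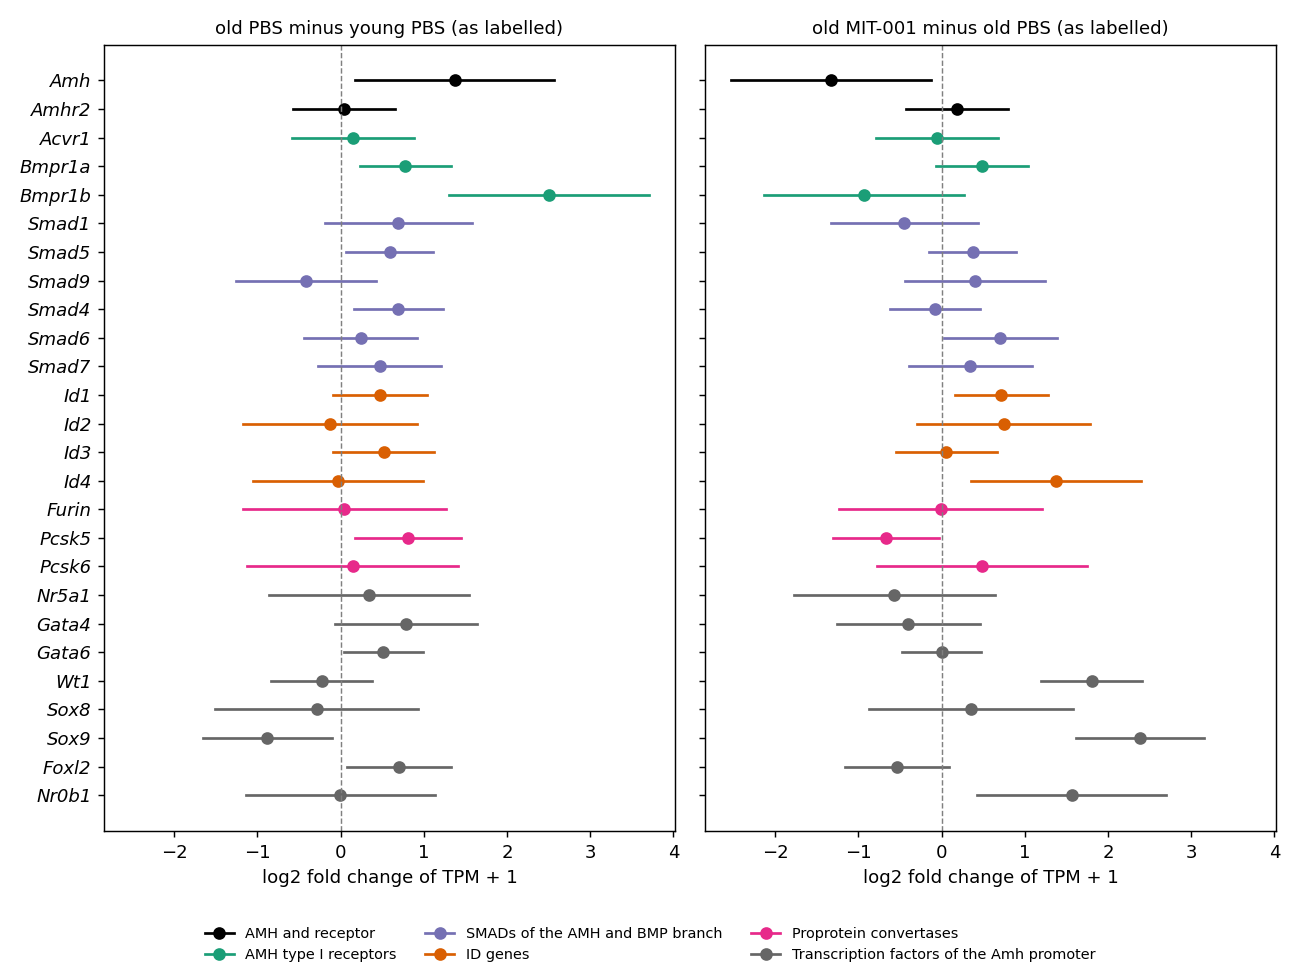
Log2 fold change of TPM + 1 (horizontal axis) with its 95% confidence interval for Amh, Amhr2 and 24 genes of the pathway, for old PBS minus young PBS (left) and old MIT-001 minus old PBS (right), groups as labelled. Amh lies at 1.37 and -1.33, Amhr2 at 0.04 and 0.18, and none of the genes plotted passed after adjustment over all genes.

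The profiles of the neighbouring genes differed. Sf3a2 had 49.8 and 71.8 TPM in the libraries labelled old MIT-001, 74.6 and 74.7 TPM in those labelled old PBS, and 57.4 and 116 TPM in those labelled young PBS, so it was highest in the library where Amh was lowest. Jsrp1 had 1.79 and 1.77 TPM in the old MIT-001 libraries and 3.47 and 4.73 TPM in the old PBS ones. In the young PBS libraries it had 4.02 and 1.58 TPM. Like Amh, Jsrp1 was highest in replicate 2 labelled old PBS and lowest in replicate 2 labelled young PBS. Its log2 fold change was 0.49 for old PBS against young PBS (adjusted p by limma 0.561). For old MIT-001 against old PBS it was -0.87 (adjusted p 0.485). Sp1, the nearest gene before Amhr2 and 8597 bases from it, had 41.6 and 37.8 TPM in the old MIT-001 libraries, 30.1 and 37.6 TPM in the old PBS ones and 21.4 and 20.3 TPM in the young PBS ones. The highest Sp1 levels were in the old MIT-001 and the lowest in the young PBS libraries.

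The genes whose profile was most like each member were ranked by Pearson's r of log2(TPM + 1) over the 6 libraries, among 11951 other genes with a mean of at least 5 TPM. With so many genes and 6 libraries that fall into groups, high values of r are found by selection alone, and no p is given. Nearest to Amh were Ung (r = 0.998), Nek2 (0.992), Gmnn (0.991), Lap3 (0.989), Pbk (0.987), Tcf19 (0.986), Ccna2 (0.985), Eif2b1 (0.984), Fen1 (0.983) and Zfp385b (0.981). Ccna2, the cyclin A2 gene, had 14.0 and 16.7 TPM in the libraries labelled old MIT-001, 28.0 and 45.6 TPM in those labelled old PBS, and 20.0 and 8.93 TPM in those labelled young PBS. Of the lists, oocyte genes had a median r of 0.85 with Amh and granulosa genes 0.81, against 0.18 over all 11951 genes. The closest granulosa gene was Serpine2, a serpin, in place 58 (r = 0.960).

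Amhr2 had an r of 0.25 with Amh. Nearest to Amhr2 were Eef2kmt (0.944), Ptpn2 (0.943), Ccdc122 (0.937), TrnL1 (0.937), Pifo (0.936), Arhgdig (0.935), Gtf2f2 (0.931), Nme5 (0.929), Mettl1 (0.929) and Hpcal1 (0.927). Some of these genes were far higher in 1 library, replicate 2 labelled old MIT-001, where Amhr2 was also highest. Pifo, a gene of primary cilia, had 33.4 TPM there and at most 2.92 TPM in the other 5 libraries, and Foxj1, which directs motile cilia, had 67.0 TPM there against at most 4.08 TPM elsewhere. Granulosa genes had a median r of 0.17 with Amhr2 and oocyte genes -0.25, against 0.09 over all genes.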

How the data were processed

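The 6 whole-ovary libraries, 2 in each group, came as StringTie gene tables. The submitters' processing notes name Trimmomatic, HISAT2 and StringTie with mm10, and give neither annotation nor strand setting, so antisense reads cannot be separated. TPM as deposited (file headers) is an abundance scaled for length with the same total in each library. FPKM as deposited is scaled for length and fragments, and the deposited coverage is a signal, the mean read depth of a gene.

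Symbols were matched on Gene ID to RefSeq GRCm38.p6 (98 rows per library did not match and were left out), and values of a symbol were summed. The fit took log2(TPM + 1) of the 16473 genes reaching 1 TPM in 2 or more libraries, with limma 3.58.1 (R 4.3.3), 1 mean per group, all 6 libraries and an intensity trend. Tests were two-sided with Benjamini-Hochberg adjustment over these genes, called at 0.05. Fold changes on this scale understate those of low genes. The procedure was tested on simulated data. Alternatives were a pseudocount of 0.1, no filter or one at 5 TPM, FPKM, median centring, quantile normalization, no trend, only the 4 libraries compared, a replicate block, and each library left out. Exact permutation tests used SciPy 1.17.1.

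Named genes were Amh and Amhr2, genes of the pathway lists, up to 4 members of a marker list with the smallest p in a comparison, the nearest gene on each side of a member, and the 10 most alike in profile, without predicted or clone names. There were 16 lists of 100 genes, 99 of them tested. The members and lists were chosen with earlier results of these data known, and Foxj1 and Serpine2 were picked after their values were seen. Medians of the theca, luteal, stromal and macrophage lists were -0.58, 0.05, 0.48 and 1.17 for old MIT-001 against old PBS and 0.57, 0.95, 0.27 and -2.33 for old PBS against young PBS. With 1 library left out, the luteal median ran from -0.27 to 0.28 and from -0.27 to 1.98 in these comparisons, and the stromal one from -0.38 to 0.45 in old PBS against young PBS, so these directions turned.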

Additional observations from a re-analysis of the deposited data

How the results depend on the processing

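Amh kept its direction in all 15 alternatives, with log2 fold changes of 0.76 to 1.98 for old PBS against young PBS. For old MIT-001 against old PBS they were -1.73 to -0.94. Only FPKM, median centring and quantile normalization could have turned it, and they gave 1.20, 1.05 and 1.23, and -1.32, -1.43 and -1.35. The others could not, because they kept the order of the Amh libraries, which did not overlap in these comparisons. In the alternatives other than leaving out 1 library, Amh did not pass (adjusted p by limma 0.225 to 0.435 and 0.135 to 0.501). Values near 0 changed sign. Amhr2 in old PBS against young PBS was -0.11 with FPKM, -0.28 with median centring and -0.056 with quantile normalization, and -0.078 to 0.16 with 1 library left out. For old MIT-001 against young PBS, Amh was -0.11 with FPKM, -0.38 with centring, -0.12 with quantile normalization and -0.57 to 0.65 with 1 library left out. Amhr2 in that comparison was -0.19 with centring and -0.066 to 0.51 with 1 library left out. Amhr2 in old MIT-001 against old PBS was -0.11 to 0.47 with 1 library left out, the lowest without replicate 2 labelled old MIT-001.

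The number of genes called in old PBS against young PBS, 6 as reported, was 1 with no filter, 11 with FPKM, 15 with centring, 17 with quantile normalization, 1 with no intensity trend, 0 with the 4 libraries compared, and 0 to 948 with 1 library left out. In old MIT-001 against old PBS, 3 as reported, it was 0 with no filter, 1 with FPKM, 1 with centring, 356 with the 4 libraries compared, and 0 to 372 with 1 library left out. The highest counts, 948 and 372, came without replicate 1 and without replicate 2 labelled young PBS. With the replicate block, 1 gene was called in old PBS against young PBS and 0 in old MIT-001 against old PBS, and Amh had adjusted p of 0.275 and 0.394. Replicate-1 deviations correlated at 0.17 (old MIT-001 and old PBS), 0.24 (old MIT-001 and young PBS) and 0.01 (old PBS and young PBS). These values do not show whether same-numbered libraries share more than a number. The causes of these changes were not tested.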
